A study of Mus musculus with 8 samples.

Results

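The granin and prohormone processing machinery of the dorsomedial hypothalamus was followed through 10 genes: Scg2, Chgb, Scg3, Chga, Vgf, Scg5, Pcsk1, Pcsk2, Cpe and Nucb2. They are listed granins, prohormone convertases and other genes of the regulated secretory pathway, found by matching Ensembl identifiers to symbols. All 10 were present among the 55487 genes of the deposited tables, and all 10 passed the low-count filter that left 17339 genes for testing. RNA was sequenced from the dorsomedial hypothalamus (DMH) of mice, a hypothalamic nucleus with roles in feeding, body temperature and daily rhythms. A knockdown of Ppp1r17, which encodes a protein phosphatase inhibitor, by a short hairpin RNA (shPpp1r17, 4 libraries) was set against a hairpin to firefly luciferase, an insect gene that mice lack (shfLuc, 4 libraries). The controls thus carry a hairpin too, and no group without one was analysed here. The sample titles carry the mark LMD, the usual short form of laser microdissection. The sources used here do not give the strain, sex and age of the mice or the way in which the hairpins were delivered. The labels do not say that each library came from its own animal, so the p-values below measure only the spread between these libraries, part of which may be technical.

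Neurons store peptide transmitters and hormones in dense-core granules, which bud from the trans-Golgi network and release their content on stimulation. Granins are acidic proteins that aggregate with cargo as granules form, and many are themselves cut into peptides. Within the maturing granule, prohormone convertases cut precursors at paired basic residues, and carboxypeptidase E then removes the exposed basic residues. The hypothalamus is rich in such granules because many of its neurons signal with peptides.

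Several genes of this pathway are textbook targets of the transcription factor CREB, which binds the cAMP response element TGACGTCA, a sequence that reads the same on both strands. The promoter windows of RefSeq (assembly GRCm38.p6, 250 bases before to 50 bases after each start) covered 8 of the 10 genes, all but Vgf and Cpe. The full element occurred in 3 of those 8 promoters, against 2.03% of 27025 genes with a window and 3.37% of 11971 tested genes with one. The element began 68 bases upstream of the start in Scg2, 72 in Chgb and 78 in Pcsk1. The promoters of these 3 genes are printed 5′ to 3′ because the element is the one feature of sequence they share here, and it stands in capitals. A match is a description of letters and not a measured binding site. The windows are chr1:79439977-79440276 (minus strand) for Scg2, chr2:132781392-132781691 (plus strand) for Chgb and chr13:75089607-75089906 (plus strand) for Pcsk1.
Scg2 promoter: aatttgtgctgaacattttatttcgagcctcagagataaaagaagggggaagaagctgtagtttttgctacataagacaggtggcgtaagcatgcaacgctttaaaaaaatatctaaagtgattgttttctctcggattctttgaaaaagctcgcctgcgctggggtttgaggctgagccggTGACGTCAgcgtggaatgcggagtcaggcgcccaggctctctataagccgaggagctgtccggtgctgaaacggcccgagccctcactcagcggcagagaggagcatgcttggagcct
Chgb promoter: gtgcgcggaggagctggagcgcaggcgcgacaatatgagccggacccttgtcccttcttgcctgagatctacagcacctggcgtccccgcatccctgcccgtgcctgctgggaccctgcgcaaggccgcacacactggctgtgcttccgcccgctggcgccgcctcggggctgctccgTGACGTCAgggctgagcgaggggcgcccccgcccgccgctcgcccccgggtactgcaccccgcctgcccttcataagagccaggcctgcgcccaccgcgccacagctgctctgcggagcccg
Pcsk1 promoter: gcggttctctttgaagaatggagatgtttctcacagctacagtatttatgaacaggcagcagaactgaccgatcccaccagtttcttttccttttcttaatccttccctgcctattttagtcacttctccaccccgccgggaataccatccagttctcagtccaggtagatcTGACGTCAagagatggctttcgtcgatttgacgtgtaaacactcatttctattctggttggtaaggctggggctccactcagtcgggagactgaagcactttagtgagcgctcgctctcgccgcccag

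The other promoter motifs searched occurred at shares near those of tested genes in general. The GC box GGGCGG, on either strand, occurred in 5 of the 8 promoters, against 65.9% of tested genes with a window. The TATA box TATAAA, searched on both strands, occurred in Chga alone, against 9.16% of tested genes with a window. The 3 genes with the cAMP element did not move as one set. Pcsk1 and Chgb had positive log2 fold changes and Scg2 had one near 0, and none of the 3 passed the test, as the values below give in full.

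The hairpin libraries fell into 2 levels of the targeted gene. Ppp1r17 stood at 87.7, 2.07, 3.10 and 87.2 CPM (read counts scaled to library size) in shPpp1r17 1 to 4, and at 147, 161, 161 and 171 CPM in shfLuc 1 to 4. Each was below the lowest shfLuc library, yet with such a spread the fitted log2 fold change of -1.83 (SE 0.80) did not pass edgeR's quasi-likelihood test (adjusted p = 0.197). It passed in 3 of 22 alternatives, with limma voom (-3.31, adjusted p = 0.0368), with voom and quality weights (-3.85, adjusted p = 0.00746) and in edgeR without libraries 2 and 3 (-0.88, adjusted p = 0.00428). Libraries 2 and 3 of shPpp1r17 thus stand apart from libraries 1 and 4, and values without them are given below for some of the results. Where none is given, the result may still depend on them. Library totals ran from 25637389 to 33907984 estimated reads in shPpp1r17 and from 23070147 to 25749643 in shfLuc. Neuron markers summed to 6765 to 7021 CPM in shPpp1r17 and to 6779 to 6880 CPM in shfLuc, with 1 of 16 higher and 3 lower by the test. Microglia and macrophage markers summed to 513 to 891 CPM in shPpp1r17, against 347 to 487 CPM in shfLuc, with 9 of 17 higher. Oligodendrocyte markers were 1547 to 2708 CPM in shPpp1r17, against 1506 to 1542 CPM in shfLuc, with 6 of 14 higher. All 5 tested blood cell markers were higher (638 to 1231 CPM in shPpp1r17, against 328 to 567 CPM in shfLuc). Astrocyte markers overlapped in sum (3967 to 4400 CPM in shPpp1r17, against 4207 to 4663 CPM in shfLuc), with 2 of 15 higher, Gfap among them at a log2 fold change of 1.82, and 3 lower. Ependymal, tanycyte and choroid plexus markers also overlapped (91.7 to 156 CPM in shPpp1r17, against 73.6 to 103 CPM in shfLuc), with 2 of 9 higher and 1 lower, as did endothelial markers, with 1 of 12 higher. Of 9 markers of endocrine cells of the anterior pituitary, another granule-rich tissue, Gh, Prl, Fshb and Pou1f1 had 0 reads in all 8 libraries, and Lhb, Cga and Ghrhr had at most 6 reads in any. The other 2, Tshb and Tbx19, were detected in every library at low level, together 1.64 to 2.93 CPM in shPpp1r17 and 2.18 to 3.41 CPM in shfLuc, and neither was called.

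Granule and prohormone genes changed little when Ppp1r17 was knocked down. By edgeR's quasi-likelihood test at an adjusted p of 0.05, 1 of the 10 was called higher in shPpp1r17, Nucb2, and 0 were called lower. Over all 17339 tested genes, 6.06% were called, 3.39% higher and 2.66% lower. At an unadjusted p of 0.05 the count was also 1 higher and 0 lower, where 22.6% of all genes passed in either direction. DESeq2, limma voom and limma voom with sample quality weights likewise called 0 lower. The groups of libraries did not overlap for 2 of the 10, Nucb2 and Chgb, against 13.9% of all tested genes. Log2 fold changes were above 0 for 4 genes and below 0 for 6, with a median of -0.018, against 0.0043 over all genes. The median size of the log2 fold change, regardless of sign, was 0.096 for the 10 genes, 0.19 for all genes and 0.13 for the 5402 genes with a mean log2 CPM of at least 5. In these bulk samples, fewer cells of a type and less RNA per cell cannot be told apart. Across all genes, 56.0% of calls were higher on counts, but 38.8% on log2(TPM + 1).

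The summed level of the 10 genes overlapped between the groups on counts but not in TPM. On counts it was 5468, 5629, 5346 and 5400.0 CPM in shPpp1r17 1 to 4, against 5594, 5439, 5533 and 5771 CPM in shfLuc 1 to 4. In TPM the sum was 3739, 3801, 3538 and 3789.8 in shPpp1r17 1 to 4, against 3916, 3940, 4131 and 4161 in shfLuc 1 to 4, with every shPpp1r17 library lower. The median log2(TPM + 1) difference over all genes was itself -0.062, and that of the 10 genes was -0.090. With counts and the effective length as an offset, the medians were 0.0034 over all genes and -0.014 for the 10 genes.

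**Figure D1:**
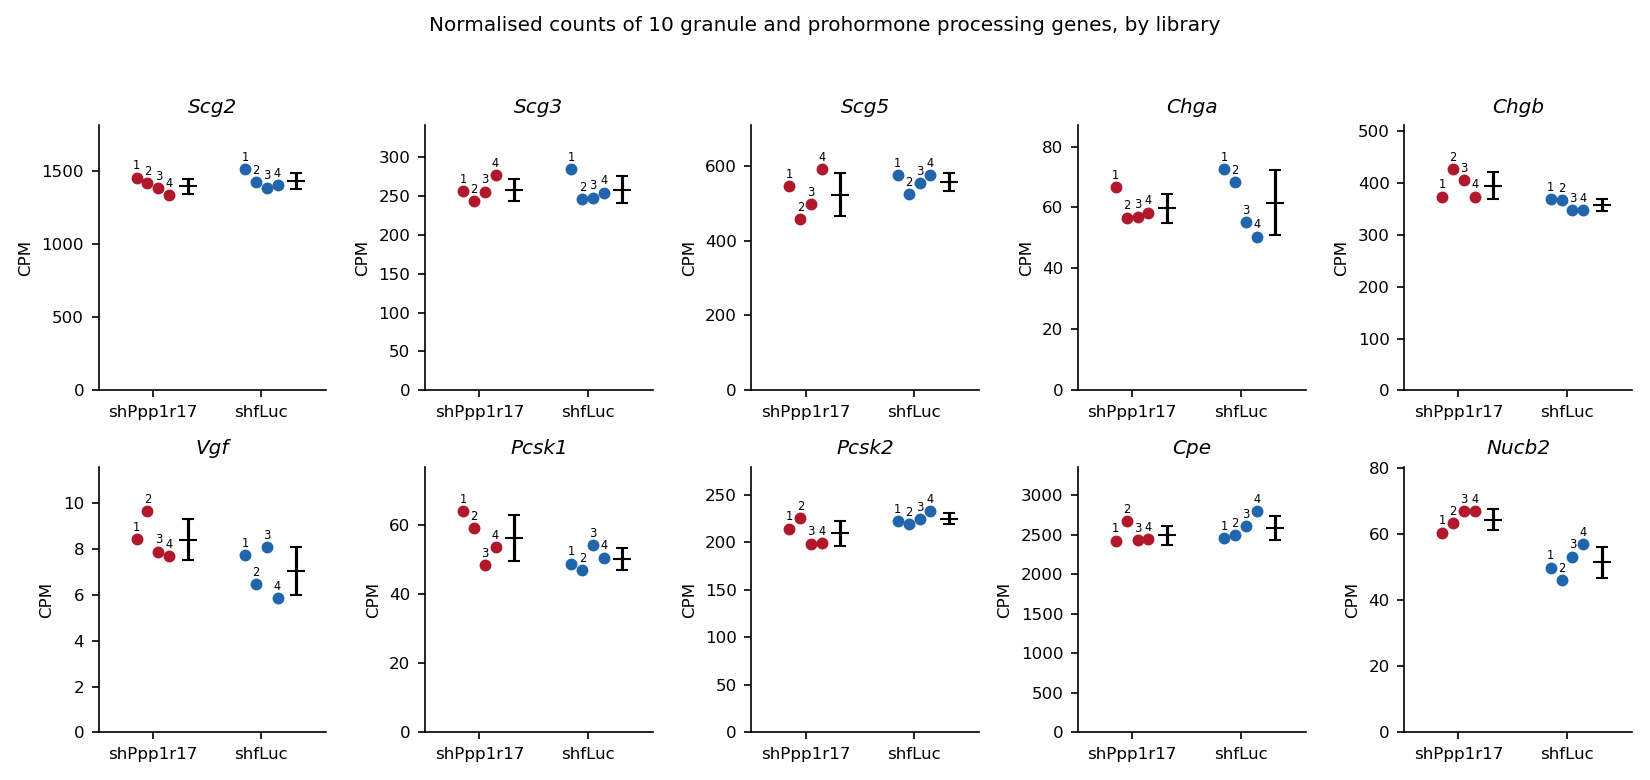
Normalised counts (CPM, linear axes from 0) of each gene in the 4 shPpp1r17 libraries (red) and the 4 shfLuc libraries (blue), with numbers for the replicates and black bars for the mean ± SD. Points overlap between the groups in 8 panels, and in the Nucb2 and Chgb panels every shPpp1r17 point lies above every shfLuc point.

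The classical granins Scg2, Chgb, Scg3 and Chga did not pass the test. Scg2 encodes secretogranin II, the precursor of secretoneurin (ENSMUSG00000050711; chr1:79434669-79440120, minus strand; coordinates here and below are those of GRCm38 in the GENCODE M21 annotation). Its level was 1451, 1415, 1379 and 1330.5 CPM in shPpp1r17 1 to 4, against 1509, 1419, 1382 and 1399.7 CPM in shfLuc 1 to 4. The groups overlapped over most of their range, and library 4 of shPpp1r17 was the lowest of all 8. Knockdown over control gave a log2 fold change of -0.035 (SE 0.056, adjusted p = 0.769 by edgeR's quasi-likelihood test), a difference of -2.37% with a 95% interval of -10.3% to 6.22%.

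Chgb encodes chromogranin B, which takes part in granule formation (ENSMUSG00000027350; chr2:132781278-132795079, plus strand). It stood at 373.1, 426, 405 and 373.1 CPM in shPpp1r17 1 to 4, against 368, 367, 347 and 347 CPM in shfLuc 1 to 4. All 4 shPpp1r17 libraries lay above all shfLuc libraries, the lowest of them by a small margin, and libraries 2 and 3 were the highest. The mean was 394 ± 26.1 CPM in shPpp1r17 and 357 ± 11.9 CPM in shfLuc (SD, n = 4 each), a difference of 10.4% (95% interval -0.0010 to 0.29 on the log2 scale). The log2 fold change of 0.14 (SE 0.067) had an adjusted p of 0.225 by edgeR's quasi-likelihood test. Without shPpp1r17 libraries 2 and 3 it was 0.059 (adjusted p = 0.772), and on log2(TPM + 1) it was 0.050 (adjusted p = 0.668 by limma).

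Scg3 encodes a granin that binds chromogranin A and helps to anchor aggregates to the granule membrane (ENSMUSG00000032181; chr9:75643189-75684056, minus strand). It had the smallest fold change of the 10 genes: 256, 243, 255 and 276 CPM in shPpp1r17 1 to 4, against 284, 246, 247 and 254 CPM in shfLuc 1 to 4. Each group held 1 higher library, replicate 4 in shPpp1r17 and replicate 1 in shfLuc, and the other 6 lay within a narrow band. The difference was -0.0718% (95% interval -10.2% to 11.2%), with a log2 fold change of -0.0010 (SE 0.072, adjusted p = 0.994 by edgeR's quasi-likelihood test), whose sign turned in 8 of 22 alternatives.

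Chga encodes chromogranin A, the precursor of vasostatin and catestatin (ENSMUSG00000021194; chr12:102554969-102565028, plus strand). Its level was 66.8, 56.6, 57.0 and 58.4 CPM in shPpp1r17 1 to 4, against 72.5, 68.4, 55.2 and 50.4 CPM in shfLuc 1 to 4. The shfLuc libraries spanned the whole range of the shPpp1r17 libraries, with a coefficient of variation of 17.1%, the largest among the 10 genes in that group, against 8.02% in shPpp1r17. Its log2 fold change was -0.046 (SE 0.11, adjusted p = 0.856 by edgeR's quasi-likelihood test), with a 95% interval of -18.3% to 14.8% for the difference. Without libraries 2 and 3 of shPpp1r17 it was 0.018 (adjusted p = 0.973).

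Vgf encodes a granin-like precursor of several peptides, named for its induction by nerve growth factor (ENSMUSG00000037428; chr5:137026392-137033351, plus strand). It was the least abundant of the 10, with 8.44, 9.645, 7.89 and 7.67 CPM in shPpp1r17 1 to 4, against 7.73, 6.48, 8.08 and 5.86 CPM in shfLuc 1 to 4. These levels rest on 216 to 261 reads per shPpp1r17 library and 149 to 189 reads per shfLuc library, where each other member had at least 1081. Libraries 2 and 4 of shfLuc were the lowest, and libraries 1 and 3 of shfLuc lay within the shPpp1r17 range. The mean was 8.41 ± 0.883 CPM in shPpp1r17 and 7.04 ± 1.04 CPM in shfLuc (SD, n = 4 each). The difference of 19.5% had a 95% interval of -5.89% to 51.7%, the widest of the 10, and an adjusted p of 0.376 by edgeR's quasi-likelihood test.

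The processing enzymes and their chaperone did not pass the test either. Pcsk1 encodes a prohormone convertase that makes the first cuts in many neuropeptide precursors (ENSMUSG00000021587; chr13:75089826-75134861, plus strand). It stood at 63.8, 59.0, 48.2 and 53.5 CPM in shPpp1r17 1 to 4, against 48.7, 46.7, 54.1 and 50.5 CPM in shfLuc 1 to 4. Libraries 1 and 2 of shPpp1r17 lay above all others, and libraries 3 and 4 lay within the shfLuc range. The log2 fold change was 0.17 (SE 0.094, adjusted p = 0.324 by edgeR's quasi-likelihood test), a difference of 12.2% (95% interval -2.50% to 29.1%).

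Pcsk2 encodes the convertase that cuts many intermediates further into the final peptides (ENSMUSG00000027419; chr2:143546156-143816285, plus strand). It stood at 214, 225, 199 and 199 CPM in shPpp1r17 1 to 4, against 222, 219, 225 and 233 CPM in shfLuc 1 to 4. Libraries 1, 3 and 4 of shPpp1r17 lay below all of shfLuc, and library 2 lay among them. In CPM its log2 fold change was -0.10 (SE 0.067, adjusted p = 0.405 by edgeR's quasi-likelihood test), a difference of -6.81% (95% interval -15.7% to 3.01%). In TPM, which is scaled to gene length, the groups did not overlap, with 59.4, 62.5, 53.5 and 54.7 TPM in shPpp1r17 1 to 4, against 63.3, 64.6, 67.8 and 67.5 TPM in shfLuc 1 to 4. The log2(TPM + 1) difference of -0.19 did not pass (adjusted p = 0.131 by limma), on a scale whose median over all genes was -0.062. Exons of Pcsk2 overlap those of the antisense genes Pcsk2os1 (63 to 144 reads per library) and Pcsk2os2 (0 to 2 reads), and without a stated use of strand their reads cannot be told apart.

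Scg5 encodes the small neuroendocrine chaperone that pro-Pcsk2 protein needs to become active (ENSMUSG00000023236; chr2:113776362-113829121, minus strand). It stood at 546, 457, 497 and 590.2 CPM in shPpp1r17 1 to 4, against 574, 523, 552 and 574 CPM in shfLuc 1 to 4. Libraries 2 and 3 of shPpp1r17 were the lowest of all 8 and library 4 the highest, which gave a coefficient of variation of 11.1% in shPpp1r17, against 4.34% in shfLuc. Its log2 fold change of -0.090 did not pass (SE 0.080, adjusted p = 0.551 by edgeR's quasi-likelihood test), with a 95% interval of -16.6% to 5.91% for the difference. It was 0.027 (adjusted p = 0.912) without libraries 2 and 3 of shPpp1r17, so that the sign rests on them.

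Cpe encodes carboxypeptidase E (ENSMUSG00000037852; chr8:64592542-64693054, minus strand). It had the highest level of the 10 genes, with 2428, 2675, 2431 and 2444 CPM in shPpp1r17 1 to 4, against 2458, 2498, 2609 and 2800.0 CPM in shfLuc 1 to 4. Library 2 of shPpp1r17 stood above the other 3 of its group and within the shfLuc range. On counts the log2 fold change was -0.055 (SE 0.060, adjusted p = 0.641 by edgeR's quasi-likelihood test), a difference of -3.72% (95% interval -12.0% to 5.31%).

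Nucb2 was the member that rose. It encodes nucleobindin 2, a calcium-binding protein and the precursor of nesfatin, a peptide that lowers food intake in rodents and is made in several hypothalamic nuclei (ENSMUSG00000030659; chr7:116504369-116540584, plus strand). Its level was 60.5, 63.4, 66.9 and 67.0 CPM in shPpp1r17 1 to 4, against 49.9, 46.1, 53.2 and 56.9 CPM in shfLuc 1 to 4. Every shPpp1r17 library lay above every shfLuc library. Of the shPpp1r17 libraries with the weaker knockdown, library 1 was the lowest of its group and library 4 was as high as library 3. The mean was 64.4 ± 3.14 CPM in shPpp1r17 and 51.5 ± 4.63 CPM in shfLuc (SD, n = 4 each). The log2 fold change was 0.32 (SE 0.082, adjusted p = 0.0372 by edgeR's quasi-likelihood test), a difference of 25.1% (95% interval 10.5% to 41.5%).

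The Nucb2 call lay near the threshold and was lost in 13 of 22 alternatives, among them those that take gene length into account. The deposited effective length of Nucb2, the estimated number of positions from which a read could start averaged over its transcripts, was 1252, 1316, 1278 and 1398 bases in shPpp1r17 1 to 4, against 1219, 1265, 1190.0 and 1327 bases in shfLuc 1 to 4. The means were 1311 ± 63.7 bases in shPpp1r17 and 1250 ± 59.9 bases in shfLuc (SD, n = 4 each), and the groups overlapped. In TPM, Nucb2 stood at 60.4, 60.3, 63.7 and 59.5 in shPpp1r17 1 to 4, against 52.6, 48.5, 60.9 and 56.2 in shfLuc 1 to 4. On that scale library 3 of shfLuc reached into the shPpp1r17 range. With the effective length as an offset, the log2 fold change was 0.25 (adjusted p = 0.117 by edgeR), and on log2(TPM + 1) it was 0.16 (adjusted p = 0.240 by limma). The latter scale had a median difference of -0.062 over all genes. Leaving out any 1 library except shPpp1r17 1 ended the call, with log2 fold changes of 0.27 to 0.37 and an adjusted p of up to 0.126. Without libraries 2 and 3 of shPpp1r17 the log2 fold change was 0.30 (adjusted p = 0.246). Over all 22 alternatives the log2 fold change stayed above 0, the adjusted p ran from 0.00866 to 0.246, and 9 passed. Microglial markers summed to 580, 891, 835 and 513 CPM in shPpp1r17 1 to 4, each above the shfLuc libraries as Nucb2 was. The sums of blood cell markers, given above, were likewise higher in every shPpp1r17 library. Oligodendrocyte sums were 1669, 2595, 2708 and 1547 CPM in shPpp1r17 1 to 4, the last barely above the highest shfLuc sum of 1542.5 CPM. Libraries 2 and 3 of shPpp1r17 had the highest microglial and oligodendrocyte sums. Library 4 had the lowest of both in its group, while its Nucb2 level was as high as that of library 3. The part of these 3 marker sets in the result was not tested.

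**Figure D2:**
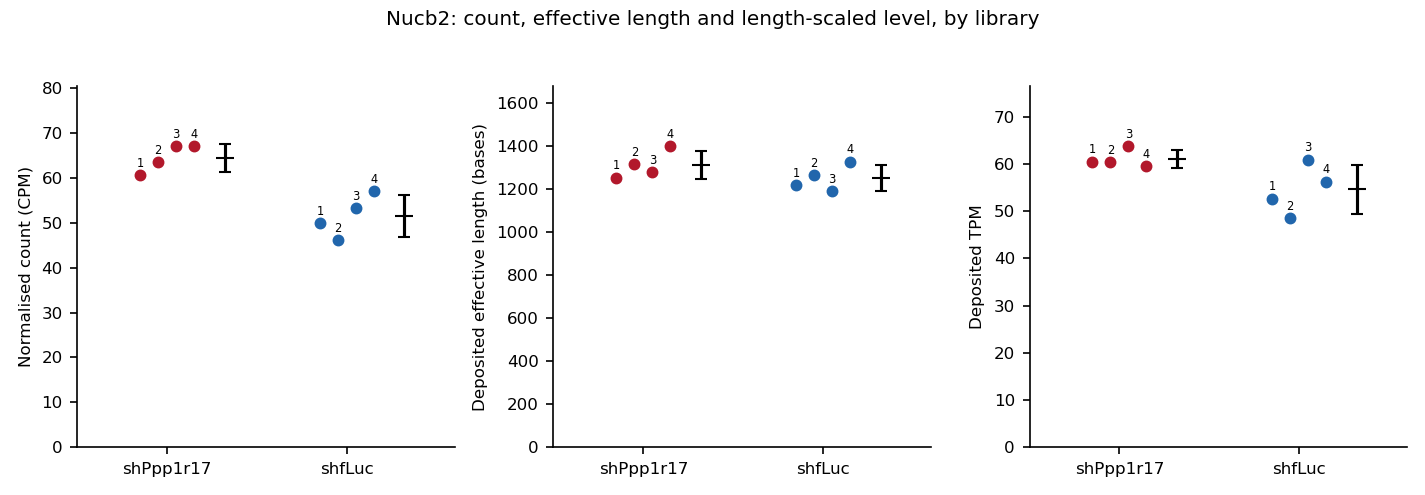
Nucb2 in each library (shPpp1r17 in red, shfLuc in blue, numbers for replicates, black bars for mean ± SD) as normalised count in CPM, as deposited effective length in bases and as deposited TPM, on linear axes from 0. The groups do not overlap in CPM (60.5 to 67.0 in shPpp1r17, 46.1 to 56.9 in shfLuc) but do in effective length and in TPM.

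The genes whose level followed Nucb2 most closely over the 8 libraries, by Pearson's correlation of log2 CPM among 9694 genes, were Fndc4 (r = 0.974), Pip5k1a (r = 0.973) and Ufc1 (r = 0.969). Fndc4 stood at 30.3 to 37.2 CPM in shPpp1r17, against 20.8 to 24.6 CPM in shfLuc. The 8 libraries share their 2 groups and their depth, and with so many genes searched the highest values are a description.

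A sequence known from these same libraries to be common in 3′ UTRs of genes lower in shPpp1r17 was looked up in the pathway genes. It is CTCTGATA, counted on the transcript strand when at least CTCTGAT or TCTGATA was present in the longest 3′ UTR of at least 50 bases (GENCODE M21). It occurred in 18.7% of 14261 tested genes with such a UTR and in 55.0% of 436 genes called lower, a share that is not independent evidence because the sequence came from these data. Among the 10 members only Nucb2 held it, the gene that was higher. In the wider pathway it occurred in 5 of 25 searched genes of sorting and maturation and 5 of 23 of docking and release. It also occurred in 4 of 29 neuropeptide precursors, 1 of 10 genes of peptide trimming and 0 genes of the other lists. Of the called genes, Cyb561, Syt10, Atp6ap2, Ap1s1, Nts and Cartpt did not hold it, and Rab2b, which was lower, did. The sites of these called genes are printed as 30 bases of the transcript strand, with the match in capitals, at chr7:116540319-116540348 (plus strand) for Nucb2 and chr14:52263192-52263221 (minus strand) for Rab2b.
Nucb2 site: taatttatagtCTCTGATgagctaatcata
Rab2b site: gtgaaggatatTCTGATAtaacatttagaa

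Set on a scale that takes gene length into account, the 10 genes spanned a wide range and kept nearly the same order in both groups. In shfLuc, Cpe averaged 1918 ± 131 TPM and ranked 59 among the 17339 tested genes by mean TPM over all libraries, Scg2 ranked 194 and Scg5 247. Chgb ranked 804 and Scg3 994, Pcsk2 2243, Nucb2 2346 and Chga 2647, and Pcsk1 and Vgf ranked 6405 and 9427. Cpe, Scg5 and the granins Scg2, Chgb and Scg3 thus stood above both convertases per length, while Chga lay near Pcsk2 and Vgf below both.

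In shPpp1r17 the mean levels were 1752 ± 97.9 TPM for Cpe, 770.1 ± 34.2 for Scg2, 638 ± 75.6 for Scg5, 209 ± 12.5 for Chgb and 160.3 ± 7.20 for Scg3. In shfLuc they were 1918 ± 131 TPM for Cpe, 838 ± 18.1 for Scg2, 720.0 ± 27.2 for Scg5, 202 ± 3.999 for Chgb and 168 ± 8.81 for Scg3 (SD, n = 4 each). Neighbours in this upper part of the order did not overlap in either group. Scg2 was also lower in every shPpp1r17 library on this scale (736 to 808 TPM, against 816 to 860.4 TPM in shfLuc), with a log2(TPM + 1) difference of -0.12 that did not pass (adjusted p = 0.247 by limma).

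Lower in the order, the spread between libraries blurred the ranks. In shPpp1r17 the means were 61.0 ± 1.85 TPM for Nucb2, 57.5 ± 4.20 for Pcsk2, 48.2 ± 4.04 for Chga, 14.1 ± 1.95 for Pcsk1 and 6.48 ± 0.558 for Vgf. In shfLuc they were 65.8 ± 2.17 TPM for Pcsk2, 54.6 ± 5.25 for Nucb2, 52.4 ± 8.03 for Chga, 13.4 ± 1.05 for Pcsk1 and 5.49 ± 0.799 for Vgf. Nucb2 and Pcsk2 therefore changed places between the groups. In shPpp1r17 the ranges of Nucb2 and Pcsk2 overlapped, as did those of Pcsk2 and Chga, and in shfLuc those of Nucb2 and Chga did.

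**Figure D3:**
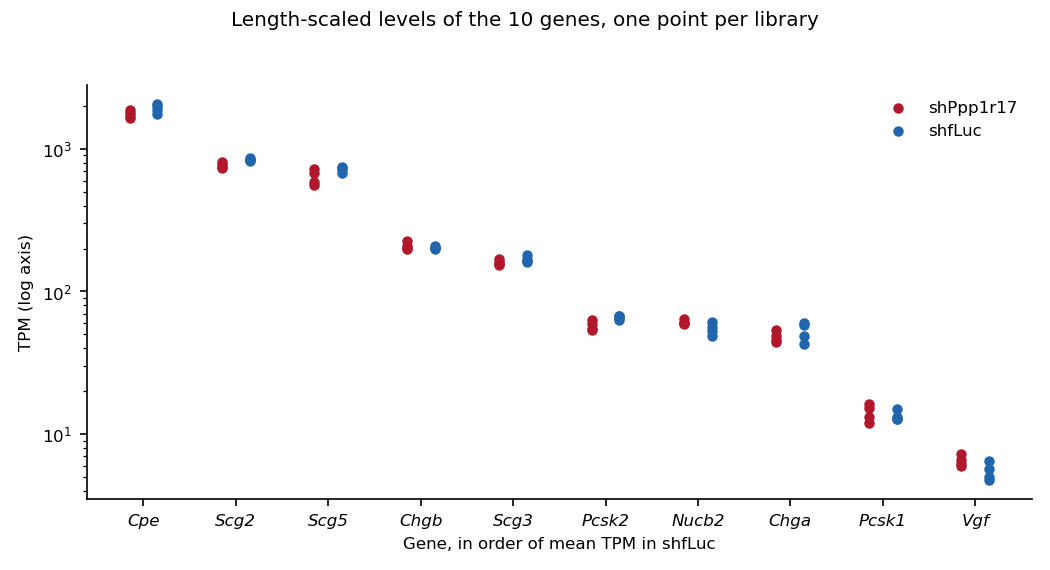
Deposited TPM of each gene (log axis), 1 point per library, with shPpp1r17 (red) left of shfLuc (blue) and genes ordered by their shfLuc mean. Levels run from 4.73 to 7.23 TPM for Vgf up to 1656 to 2056 TPM for Cpe, and red and blue points lie close together for each gene.

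The wider secretory pathway showed a few single genes that passed and no list in which most genes did. The lists were drawn up with earlier results of these data known. Over all genes 6.06% were called, 3.39% higher and 2.66% lower, and 1 call among 25 genes or 2 among 29 lie near that share. The 3 calls among 25 genes of granule sorting and maturation lie above it. Of 25 genes of granule sorting and maturation, 2 rose and 1 fell, with a median log2 fold change of -0.0089. That median joins 12 values above 0 and 13 below. At an unadjusted p of 0.05 by edgeR's quasi-likelihood test, 5 were higher and 7 lower of the 25, a larger share than the 22.6% of all genes that passed in either direction. A full separation of shPpp1r17 from shfLuc libraries was seen in 9 of the 25, also a larger share than the 13.9% of all tested genes. Atp6ap2, an accessory subunit of the proton pump that acidifies granules, stood at 449.9, 563.5, 553 and 521 CPM in shPpp1r17 1 to 4, against 425, 391, 405 and 414 CPM in shfLuc 1 to 4 (log2 fold change 0.35, SE 0.076, adjusted p = 0.0200 by edgeR). Its groups did not overlap, with library 1 of shPpp1r17 nearest to shfLuc. Ap1s1, the small subunit of an adaptor for clathrin coats at the trans-Golgi network, stood at 83.2, 87.8, 93.1 and 90.0 CPM in shPpp1r17, against 76.5, 71.0, 70.3 and 69.8 CPM in shfLuc (0.30, SE 0.071, adjusted p = 0.0290). Rab2b stood at 63.3, 49.2, 55.5 and 75.3 CPM in shPpp1r17, against 78.0, 96.9, 80.3 and 88.1 CPM in shfLuc (-0.50, SE 0.12, adjusted p = 0.0320). It encodes a close relative of the small GTPase that granule maturation needs in Caenorhabditis elegans. Rab2a, the other Rab2 gene of the list, is named here after its values were seen. It went the other way without a call, with means of 242 CPM in shPpp1r17 and 209 CPM in shfLuc (0.22, SE 0.063, adjusted p = 0.0612 by edgeR). Its groups did not overlap. Library 4 of shPpp1r17 was nearest to shfLuc for Rab2b, and the groups did not overlap for Ap1s1 or Rab2b.

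Among genes of the granule membrane, 1 of 8 fell and 0 rose, with a median of -0.14 and 6 of 8 below 0. Cyb561, a granule membrane cytochrome that passes electrons inward for enzymes such as the amidating one, stood at 111, 95.6, 99.5 and 112 CPM in shPpp1r17 1 to 4, against 126, 147, 136 and 137 CPM in shfLuc 1 to 4. Its log2 fold change was -0.38 (SE 0.079, adjusted p = 0.0177 by edgeR), and the groups did not overlap. Of 25 genes of docking and release, 1 fell and 0 rose, with a median of -0.076 and 18 of 25 below 0. Syt10, a member of the synaptotagmin family of calcium sensors, stood at 25.2, 14.8, 11.3 and 11.6 CPM in shPpp1r17, against 37.4, 31.1, 26.9 and 25.8 CPM in shfLuc (-0.95, SE 0.22, adjusted p = 0.0288). Library 1 of shPpp1r17 lay just under the lowest shfLuc library, and the other 3 lay well below.

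Among the cargo, 2 of 29 tested neuropeptide precursors were called higher and 0 lower, with a median of -0.037 and 18 of 29 below 0. At an unadjusted p of 0.05 by edgeR's quasi-likelihood test, 3 were higher and 6 lower, where 22.6% of all genes passed in either direction. Gal, another precursor of the list, is named here after its values were seen. It was lower without a call, with means of 1163 CPM in shPpp1r17 and 1441 CPM in shfLuc (-0.31, SE 0.092, adjusted p = 0.0659 by edgeR). Nts, the neurotensin precursor, stood at 42.8, 52.4, 47.1 and 50.03 CPM in shPpp1r17 1 to 4, against 31.0, 31.5, 37.3 and 32.7 CPM in shfLuc 1 to 4 (log2 fold change 0.54, SE 0.091, adjusted p = 0.0113 by edgeR). Cartpt, the precursor of the CART peptides, which lower food intake in rodents, stood at 263.5, 237, 282 and 265 CPM in shPpp1r17, against 189, 193, 211 and 217 CPM in shfLuc (0.37, SE 0.076, adjusted p = 0.0175). The groups did not overlap for either. The 29 precursors summed to 2988 to 4018 CPM in shPpp1r17 and to 3779 to 5122 CPM in shfLuc, with overlap. Without shPpp1r17 libraries 2 and 3 none of the 7 called pathway genes passed (adjusted p of 0.101 for Cartpt, 0.112 for Nts, 0.169 for Cyb561, 0.210 for Ap1s1, 0.219 for Atp6ap2, 0.267 for Rab2b and 0.269 for Syt10), each with its sign kept. Rab2b, at -0.31, was the one of the 7 whose log2 fold change was then over 1.5 times smaller. All 7 calls were also lost without shfLuc 2 or without shfLuc 3, the 2 libraries without which edgeR called 0 of all genes. With any 1 library left out, the log2 fold changes ran from 0.49 to 0.60 for Nts, 0.33 to 0.41 for Cartpt, -0.42 to -0.34 for Cyb561, 0.27 to 0.33 for Ap1s1, 0.31 to 0.42 for Atp6ap2, -0.62 to -0.41 for Rab2b and -1.27 to -0.82 for Syt10. With the replicate number as a block, Atp6ap2 (adjusted p = 0.0558) and Ap1s1 (adjusted p = 0.0707) were no longer called.

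Enzymes related to the convertases and carboxypeptidase gave no call in the edgeR fit used above, though some alternative settings called single genes. Among the 7 other proprotein convertases, 0 passed even at an unadjusted p of 0.05, and DESeq2 called 0. The smallest p belonged to Pcsk6, a convertase of the constitutive pathway (log2 fold change -0.24, adjusted p = 0.566, and -0.54 without shPpp1r17 2 and 3), and the next to Mbtps1, which cuts membrane-bound transcription factors in the Golgi (-0.065, adjusted p = 0.694). Among 10 tested genes of peptide trimming and modification, 0 passed, 2 were higher at an unadjusted p of 0.05, and DESeq2 called 1, Ctsl. Ctsl, a protease of lysosomes and granules, stood at 189, 235, 233 and 209 CPM in shPpp1r17 1 to 4, against 188, 182, 169 and 171 CPM in shfLuc 1 to 4 (0.29, SE 0.081, adjusted p = 0.0541, and 0.16 without shPpp1r17 2 and 3), with library 1 of shPpp1r17 close to shfLuc 1. Cpm, a membrane carboxypeptidase, had a log2 fold change of 0.59 (adjusted p = 0.182), and of 0.22 without shPpp1r17 2 and 3. Among the 22 alternatives, which include other edgeR settings, Ctsl was called in 6 and Cpm in 1.

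Of the 3 granin relatives and convertase inhibitors, 0 were called by edgeR and 0 by DESeq2. At an unadjusted p of 0.05, 2 of the 3 were lower, where 22.6% of all genes passed in either direction. Nucb1, the paralogue of Nucb2, had a log2 fold change of -0.23 (adjusted p = 0.154), a sign opposite to that of Nucb2. Gnas, a locus that encodes the stimulatory G protein alpha subunit and a granin-like protein, had one of -0.15 (adjusted p = 0.192), and of -0.077 (adjusted p = 0.672) without shPpp1r17 2 and 3.

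**Figure D4:**
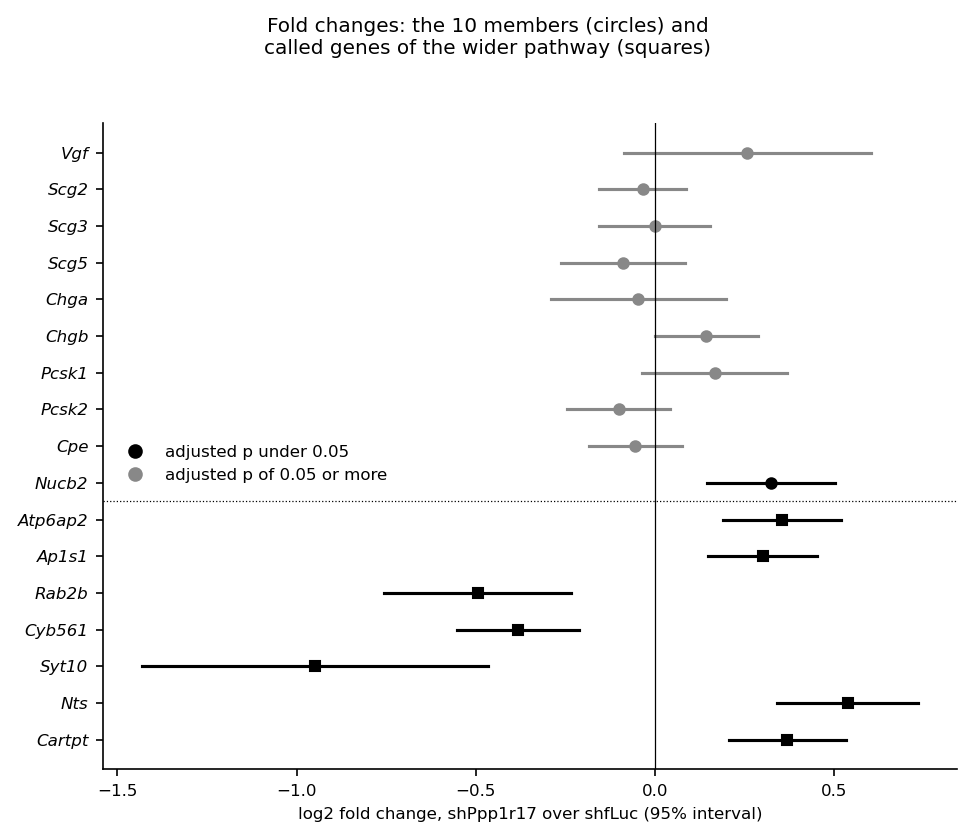
Log2 fold changes (shPpp1r17 over shfLuc, edgeR) with 95% intervals for the 10 granule and prohormone genes (circles, upper part) and the 7 called genes of the wider pathway (squares, lower part), black where the adjusted p is under 0.05 and grey elsewhere. Of the circles Nucb2 alone is black, at 0.32, and the squares run from -0.95 for Syt10 to 0.54 for Nts.

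Across 22 other analysis settings, the 10 genes gave 220 log2 fold changes. Of these, 195 kept both their sign and their side of the threshold, 13 were Nucb2 values that no longer passed, and 12 turned sign, all of Scg3, Scg5 or Chga and none of them called. No member other than Nucb2 was called under any setting, and 0 were called lower under all 22.

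**Figure D5:**
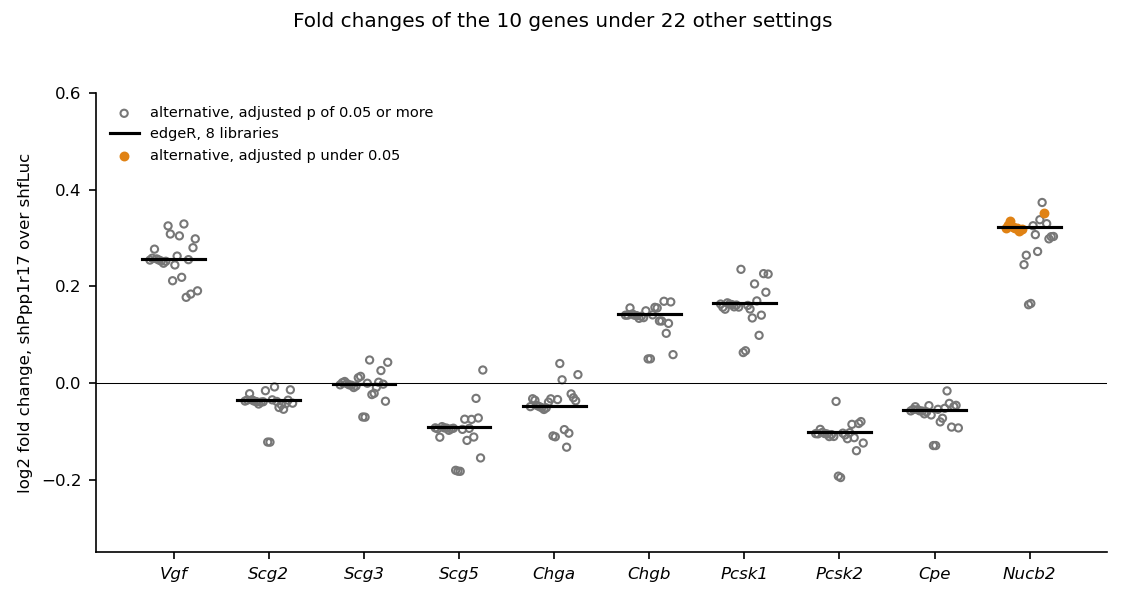
Log2 fold changes (shPpp1r17 over shfLuc) of the 10 genes under 22 other settings (points, orange where the adjusted p is under 0.05) beside the edgeR value from all 8 libraries (black bars). Nucb2 lies between 0.16 and 0.37 and holds all 9 orange points, while Scg3, Scg5 and Chga have points on both sides of 0.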

How the data were processed

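RNA was extracted with a PicoPure kit and made into libraries with a SMARTer mRNA-Seq kit (per the labels). Each deposited table, per the file headers, lists for 55487 Ensembl genes an estimated count, a TPM value, a length and an effective length in bases. Of the processing tools, the submitters' notes name bcl2fastq, DRAGEN, limma and edgeR. Their roles and versions, the genome build, the annotation and the use of strand were not given in the sources used here. Identifiers were matched to symbols for 55141 genes.

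The deposited estimated counts, which may be fractional, were rounded. Genes were tested with edgeR 4.0.16 in R 4.3.3 by its quasi-likelihood test, with TMM factors, a filter (minimum count 10, minimum total 15), group as the single term and Benjamini-Hochberg adjustment over 17339 genes at 0.05. CPM uses TMM-scaled library totals. Intervals are at 95%, and the F statistic of each gene gave its SE. The TPM values, which the authors deposited, were tested with limma 3.58.1 on log2(TPM + 1).

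Other settings tried were limma voom (plain or with quality weights), DESeq2 1.42.0, robust dispersion, library totals, RLE factors, a looser and a stricter filter, the effective length as an offset, removal of trends with length and GC (known for 99.9% of the genes), a pseudocount of 0.1, a replicate block, each library left out, and shPpp1r17 libraries 2 and 3 left out together. Chi-square per degree of freedom between replicates of a group was 7.48 to 41.1, above counting noise, so all 8 were kept as separate libraries. PCR reads carry no molecular identifiers and are not independent molecules. Totals were 23070147 to 33907984 reads.

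The members, lists and alternatives were chosen with earlier results of these data known. Named were all 10 members and Ppp1r17, from each pathway list the called genes (up to 5 by smallest p, or where none was called the 2 with the smallest p), and the 3 genes best correlated with Nucb2 among those with a mean log2 CPM of at least 3. Promoters and 3′ UTRs were searched with Python 3.11.15.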

Additional observations from a re-analysis of the deposited data

Results flagged for a closer look

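In 2 of the 48 groups of 4 libraries examined over 24 named genes, 1 library lay far from the other 3 of its group. Chance gives about 1 in 20 such groups. Chga stood at 66.8 CPM in library 1 of shPpp1r17, while the other 3 libraries of that group lay between 56.6 and 58.4 CPM. Cpe stood at 2675 CPM in library 2 of shPpp1r17, while the other 3 lay between 2428 and 2444 CPM. Neither gene passed the test, and both values lie within the range of the shfLuc libraries.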

How the results depend on the processing

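The count of genes called over the whole table was 1050 in edgeR, 1863 with DESeq2, 1763 with voom and quality weights, and 37 without shPpp1r17 libraries 2 and 3, and ran from 0 to 1548 with 1 library left out (0 without shfLuc 2 or 3, where 3309 and 3146 genes had an unadjusted p under 0.05; 287 without shfLuc 4, 310 and 196 without shPpp1r17 2 and 3). Members called higher numbered 0, not 1, with the effective length offset, with length and GC trends removed, on both TPM scales and without shPpp1r17 2 and 3, and ranged from 0 to 1 with 1 library left out. Members called lower stayed at 0 throughout. The replicate numbers gave no sign of pairing the libraries: deviations of same-numbered libraries correlated at -0.12, 0.037, -0.017 and 0.19. Those of differently numbered libraries ran from -0.19 to 0.22. So few correlations cannot exclude a pairing. With the number as a replicate block 726 genes and 0 members were called (Nucb2 0.33, adjusted p = 0.0541), as were 6 neuropeptide precursors and 1 gene of granule sorting and maturation, against 2 and 3 without it. The log2 fold change turned sign for Scg3 with voom (0.0011), voom with quality weights (0.0034), the effective length offset (0.011), length and GC trends removed (0.014) and without shPpp1r17 2 and 3 (0.043), and ran from -0.037 to 0.048 with 1 library left out. It turned for Scg5 (0.027) and Chga (0.018) without shPpp1r17 2 and 3, with leave-one-out ranges of -0.15 to -0.031 and -0.13 to 0.041, and for Mbtps1 with the effective length offset (0.065). With DESeq2 and with voom and quality weights, 7 genes of granule sorting and maturation were called (3 in edgeR), 2 and 3 of docking and release (1 in edgeR), and 4 and 6 neuropeptide precursors (2 in edgeR). These 2 settings called 1863 and 1763 of all 17339 tested genes, against 1050 in edgeR. On both TPM scales 1 gene of sorting and 1 precursor were called. The causes were not tested. Depth was lowest for Vgf, at 149 to 261 reads per library.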

Other observations

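A few values belong to no comparison above and were picked after the levels were seen. The ratios were not tested. The ratio of Pcsk2 to Pcsk1 in TPM was 3.65, 4.13, 4.49 and 4.15 in shPpp1r17 1 to 4, against 4.98, 5.05, 4.53 and 5.10 in shfLuc 1 to 4. The groups did not overlap, although library 3 of each group came close to the other, and neither convertase passed the test alone. The ratio of Scg5 to Pcsk2 in TPM, the chaperone to its convertase, ran from 8.96 to 13.3 in shPpp1r17 and from 10.6 to 11.3 in shfLuc, with the wider spread in shPpp1r17.

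Pam, which encodes the enzyme that amidates the ends of many neuropeptides, varied widely inside each group. It stood at 382, 399, 379 and 265 CPM in shPpp1r17 1 to 4, against 268, 312, 431 and 458 CPM in shfLuc 1 to 4. The log2 fold change was -0.044 (SE 0.16, adjusted p = 0.912 by edgeR's quasi-likelihood test), and the highest and the lowest libraries differed by more than they did for Chgb or Scg3, the granins nearest to it in CPM.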
